A study of Mus musculus with 6 samples.

Results

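The fatty acid and milk fat genes are 39 genes that act in fatty acid synthesis, desaturation and elongation, fatty acid uptake, triglyceride assembly and the milk fat droplet. They were chosen by name from their known roles, with earlier results of these data known. Each was represented by the probe set annotated to it alone that had the highest mean over the 6 arrays. In this way 37 of the 39 were measured, among 19937 genes in all. Acsl1 and Acsl3, which encode enzymes that activate fatty acids, are not analysed here, because no probe set was annotated to either of them alone.

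Total RNA came from mammary epithelial organoids, pieces of gland freed with collagenase and hyaluronidase and grown in a basement-membrane gel low in growth factors. All mice were age-matched females of the FVB strain with the genotype ErbB3 DOX-KO, an inducible knockout of the receptor gene Erbb3, so both groups carry it. The 3 arrays labelled DOX come from organoids kept for 14 days with 5 µM DOX (doxycycline), the drug that induces the knockout, and the 3 control arrays from organoids kept for the same time without it. The series states 3 biological replicates. The age of the mice, the promoter that drives the inducible system, the deleted exons and whether each replicate is a separate mouse are not given in the labels, so p-values measure the spread between these samples. DOX-treated organoids without the knockout were not analysed here, and effects of the drug and of the loss of Erbb3 cannot be told apart. In RNA of whole organoids, fewer cells of a type and less RNA per cell cannot be told apart either.

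Secretory cells of the mammary gland make milk fat by joining fatty acids to a glycerol backbone. The acids are either built in the cytosol from acetyl-CoA by acetyl-CoA carboxylase and fatty acid synthase, or taken up from blood lipids. The triglycerides collect in cytoplasmic droplets, which leave the cell wrapped in its apical membrane, with butyrophilin, xanthine oxidoreductase and adipophilin as the best known droplet proteins. The transcription factor SREBP-1, the product of Srebf1, drives many of the synthesis genes.

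One array, DOX replicate 2, differed widely from the rest. Its correlation across genes with any other array was 0.816 to 0.865, against at least 0.963 among the other 5 arrays, and its median value was 5.86, against 5.37 to 5.49 on the others. Each result is therefore also given without it, in a fit that rests on 2 arrays labelled DOX. With so few arrays the precision is limited throughout. The targeted gene, Erbb3, was not reduced with DOX. It read 9.78, 9.71 and 9.69 on control replicates 1 to 3 and 10.36, 9.31 and 9.82 on DOX replicates 1 to 3, which overlap. The log2 difference was 0.10 (95% confidence interval −0.58 to 0.79, limma adjusted p = 0.845, exact two-sided permutation p = 0.7, where the smallest possible is 0.1). Without DOX replicate 2 it was 0.37 (limma adjusted p = 0.105), and without DOX replicate 1 it was −0.16. Since the deleted exons are not given, how far the probe set covers them is not known. Whether and how fully the knockout took place in these samples was not tested. In what follows, DOX arrays means the arrays labelled DOX. Among mammary epithelium markers, Epcam and Krt8 had mean control levels of 11.56 and 12.52. Krt5, Krt17, Krt19 and Acta2 lay at 5.24, 4.80, 4.80 and 5.25, below the median control level of all genes. Without DOX replicate 2, 4 of 10 such markers (Krt7, Krt8, Krt14 and Krt18) fell, against 14.3% of all genes. The mean level of the 10 was 8.49 to 8.59 on control arrays and 7.94 to 8.13 on arrays labelled DOX. The 10 adipocyte markers measured had a mean level of 4.97 to 5.04 on control arrays and 5.04 to 5.57 on arrays labelled DOX, against a median control level of 5.93 over all genes, and none passed in limma in either fit (0 at an unadjusted p under 0.05 with all arrays). Of the 10, Lipe and Cebpa lay above that median, at 7.15 and 6.22 in control arrays, while Adipoq, which encodes adiponectin, and Fabp4 lay at percentiles 22.0 and 8.00 of control levels. The corresponding ranges of the mean were 4.49 to 4.67 and 4.61 to 5.42 for 9 endothelial markers, 5.12 to 5.20 and 5.11 to 5.35 for 9 macrophage markers, and 4.75 to 4.91 and 4.70 to 5.71 for 8 fibroblast markers. Of these 3 lists, the macrophage markers Cd68 and Ptprc rose and Cd14 fell without DOX replicate 2, by 1.01, 0.38 and −1.06, and no endothelial or fibroblast marker passed in either fit. The part of these cell types in the results below was not tested.

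Many fatty acid and milk fat genes were lower in the arrays labelled DOX. With all 6 arrays, 4 of the 37 measured genes fell at a limma adjusted p under 0.05 and none rose, against 2.26% of all genes that fell and 0.12% that rose, 2.38% together. These 4 were Cd36, Btn1a1, Gpd1 and Acss2, and each belongs to another step of the pathway. At an unadjusted p under 0.05, 17 members were lower and 0 higher, against 10.9% and 3.16% of all genes. In the fit of 5 arrays, 20 members fell and 2 rose, against 14.3% and 12.3% of all genes, 26.6% together. With the 50% of genes of lowest mean left out of that fit, 20 of 31 members fell and 1 rose. Of all genes kept there, 28.3% fell and 22.5% rose. The DOX arrays lay wholly below the control arrays for 22 members with all arrays, where 20.3% of all genes did so. They lay wholly above for 1 member, Fabp3, against 11.7% of all genes. Over 5 arrays these counts were 23 and 4, against 26.2% and 25.4%. Over the 37, the median log2 difference was −0.81 in the fit of 6 arrays and −0.54 in the fit of 5, beside medians of 0.02 and 0.0095 over all genes. Most members lay above the median control level, where DOX replicate 2 read low. With the 50% of genes of lowest mean left out of the fit of 6 arrays, 6 of 32 members fell and 0 rose. Of all genes kept there, 4.27% fell and 0.221% rose. The medians were then −0.95 over members and −0.33 over all genes kept. For the fit of 5 arrays they were −0.66 and −0.04.

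**Figure D1:**
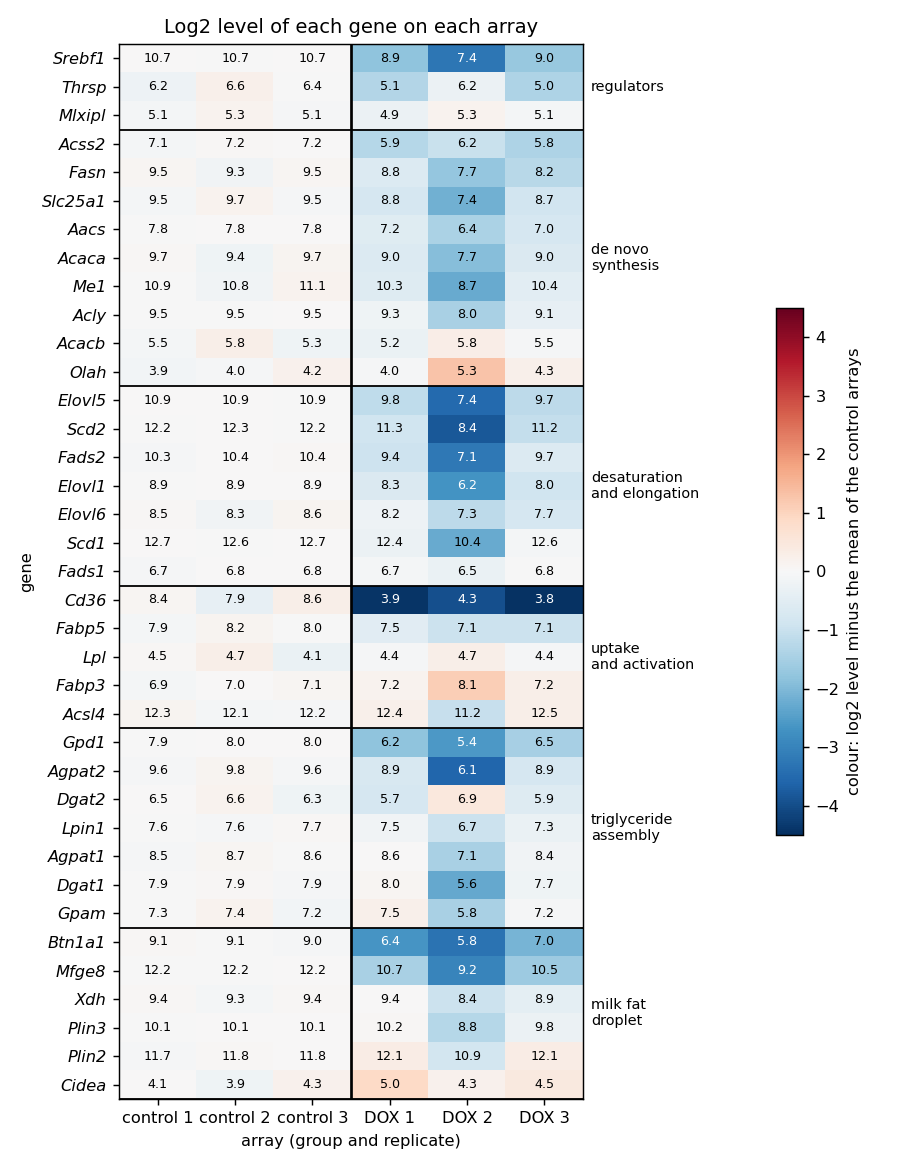
Log2 level of the 37 measured genes (rows, grouped by role) on the 6 arrays (columns). The number in a cell is the level and its colour the difference from the mean of the 3 control arrays. Cd36, Btn1a1, Gpd1 and Acss2 are blue on all 3 arrays labelled DOX, and DOX replicate 2 is the darkest column for most other rows.

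The promoters of 4 genes are shown because these genes represent uptake, acetyl-CoA supply, synthesis and elongation, and because all 4 fell without DOX replicate 2. Each window holds 300 bases, from 250 before to 50 after the transcription start in RefSeq on GRCm38.p6. The Cd36 window is chr5:17835847-17836146 on the minus strand, that of Acss2 chr2:155517793-155518092 on the plus strand, that of Fasn chr11:120824498-120824797 on the minus strand, and that of Elovl5 chr9:77917115-77917414 on the plus strand. Capitals mark matches on either strand to the CCAAT box (CCAAT) or the E-box (CACGTG).
Cd36: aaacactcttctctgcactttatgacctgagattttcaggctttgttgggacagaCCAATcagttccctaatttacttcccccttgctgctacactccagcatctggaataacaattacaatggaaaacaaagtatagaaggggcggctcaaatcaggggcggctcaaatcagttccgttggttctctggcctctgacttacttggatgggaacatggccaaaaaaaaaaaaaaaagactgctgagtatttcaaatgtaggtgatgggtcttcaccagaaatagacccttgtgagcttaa
Acss2: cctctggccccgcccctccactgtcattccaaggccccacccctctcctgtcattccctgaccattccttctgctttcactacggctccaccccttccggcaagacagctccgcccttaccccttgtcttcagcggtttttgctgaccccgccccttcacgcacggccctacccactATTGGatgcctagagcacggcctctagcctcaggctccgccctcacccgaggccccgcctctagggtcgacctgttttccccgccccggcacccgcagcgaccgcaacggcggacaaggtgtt
Fasn: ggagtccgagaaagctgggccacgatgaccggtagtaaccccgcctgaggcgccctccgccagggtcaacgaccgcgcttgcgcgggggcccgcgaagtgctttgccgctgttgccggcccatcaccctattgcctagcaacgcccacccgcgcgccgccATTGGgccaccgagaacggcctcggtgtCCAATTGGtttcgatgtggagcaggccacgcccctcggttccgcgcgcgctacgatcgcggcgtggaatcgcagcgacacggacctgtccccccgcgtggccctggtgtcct
Elovl5: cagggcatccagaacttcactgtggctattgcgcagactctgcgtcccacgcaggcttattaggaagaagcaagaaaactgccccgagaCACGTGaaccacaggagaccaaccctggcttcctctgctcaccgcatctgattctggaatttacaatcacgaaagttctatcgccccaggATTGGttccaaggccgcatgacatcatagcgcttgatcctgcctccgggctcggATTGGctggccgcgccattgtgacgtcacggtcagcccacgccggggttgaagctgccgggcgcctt

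CCAAT boxes, the binding letters of the factor NF-Y that acts beside SREBP on many lipid genes, were found in all 4 windows. In Cd36 the match began 195 bases before the start and in Acss2 73 bases before it. The Fasn window held 3 matches, 90, 62 and 59 bases before the start, and the last 2 share 2 bases. Elovl5 had matches 71 and 17 bases before the start and an E-box 161 bases before it. The RefSeq table held 36 windows of 28 of the 39 genes. A CCAAT box was present in 19 of the 36 windows, or 52.8%, against 37.4% of all 32851 windows. By gene, 9 of the 15 members in the table that fell without DOX replicate 2 had one, and so did 7 of the 11 other measured members in the table. Of 17 windows of cholesterol synthesis genes, 14 held it. The sterol regulatory element, searched as TCACNCCAC, matched windows of Mlxipl and Acsl1, which is 5.56% of member windows against 1.24% of all. The E-box matched 4 member windows (11.1% against 7.15%), and the STAT5-type site TTCNNNGAA matched 1, in Agpat1 (2.78% against 8.30%). The 4 motifs were searched on both strands, and apart from the 2 shared bases in Fasn no printed matches overlap. A match is a description of letters and not a bound site.

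Of the 3 regulators, Srebf1 and Thrsp fell without DOX replicate 2, where 14.3% of all genes fell. Srebf1 read 10.68, 10.67 and 10.68 on the control arrays and 8.86, 7.42 and 8.96 on DOX replicates 1 to 3. Every DOX array lay below the controls, DOX replicate 2 furthest. The log2 difference was −2.26 (SE 0.42, limma adjusted p = 0.0509), just outside the threshold, and −1.77 (SE 0.11, limma adjusted p = 7.74e-07), or 3.40-fold lower, without DOX replicate 2. With all arrays it passed after a second quantile normalization (limma adjusted p = 0.00692), after cyclic loess (5.94e-04) with array weights (8.76e-11) and with the 25% or 50% of genes of lowest mean left out (0.0413 and 0.0399). It did not pass with arrays centred on their median (0.0957), with a trended, robust variance model (0.0716) or with any single array but DOX replicate 2 left out (0.0861 to 0.262). Thrsp encodes a small protein induced with lipogenesis in mammary gland and fat. Its difference was −0.99 (limma adjusted p = 0.268) in the fit of 6 arrays and −1.35 (SE 0.14, limma adjusted p = 4.01e-05) without DOX replicate 2, on which it read 6.16 against 5.11 and 5.03 on the other DOX arrays. Mlxipl encodes ChREBP, a glucose-responsive activator of lipogenic genes. It lay low, at 5.18 in control arrays, and did not pass (−0.06 and −0.17, limma adjusted p = 0.869 and 0.341).

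De novo synthesis comprises 9 genes, and 6 of them fell without DOX replicate 2, against 14.3% of all genes. The median over the 9 was −0.63 in that fit. Acss2, which encodes a cytosolic enzyme that makes acetyl-CoA from acetate, read 7.09, 7.22 and 7.19 on the control arrays and 5.88, 6.17 and 5.78 on the DOX arrays. All 3 DOX arrays lay close together and below the controls. The log2 difference was −1.23 (SE 0.18, limma adjusted p = 0.0243), or 2.34-fold lower, with all arrays and −1.34 (SE 0.11, limma adjusted p = 8.38e-06) without DOX replicate 2. Leaving out control replicate 1, 2 or 3 ended the call with all arrays (limma adjusted p = 0.175, 0.200 and 0.196), as did leaving out DOX replicate 1 or 3 (0.0774 and 0.130).

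Fasn encodes fatty acid synthase, which builds the acyl chain. It read 9.53, 9.26 and 9.52 on the control arrays and 8.82, 7.68 and 8.20 on the DOX arrays, again without overlap. The difference was −1.20 (SE 0.31, limma adjusted p = 0.142), and −0.92 (SE 0.17, limma adjusted p = 0.00246) without DOX replicate 2, where it fell 1.89-fold. After a second quantile normalization it passed with all arrays (−0.94, limma adjusted p = 0.0428), as it did with array weights (6.91e-07), but not after cyclic loess (0.0623), centring (0.209) or with a trended, robust variance model (0.221). Acaca encodes acetyl-CoA carboxylase alpha, whose malonyl-CoA feeds fatty acid synthase. It read 9.68, 9.45 and 9.75 on the control arrays and 9.01, 7.71 and 8.99 on the DOX arrays. The groups did not overlap, and DOX replicate 2 was the lowest array. Its difference was −1.06 (SE 0.38, limma adjusted p = 0.284) and −0.63 (SE 0.12, limma adjusted p = 0.00329) without DOX replicate 2. A second Acaca probe set gave −0.66 there.

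The other genes that supply the pathway went the same way in part. Slc25a1, the mitochondrial citrate carrier, fell by 0.81 without DOX replicate 2 (SE 0.12, limma adjusted p = 5.52e-04). Aacs, which activates acetoacetate, fell by 0.66 there, and Me1, the malic enzyme that yields NADPH, by 0.54 (limma adjusted p = 0.00175 and 0.0081). The second probe set of Me1 differed by −0.76. Acly, which splits citrate into acetyl-CoA, differed by −0.28 (95% confidence interval −0.53 to −0.04, limma adjusted p = 0.0886) and did not pass, although its DOX arrays lay below all controls. Acacb, the carboxylase isoform tied to fat oxidation, and Olah, the thioesterase that ends chains early in lactating gland, did not pass in either fit. Their control levels of 5.53 and 4.05 lay below the median of all genes.

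Desaturation and elongation had no member past the threshold with all arrays. There, 5 of 7 were lower at a limma unadjusted p under 0.05 (10.9% of all genes were). Without DOX replicate 2, 5 of 7 fell, against 14.3% of all genes. The paralogs Scd1 and Scd2, which encode stearoyl-CoA desaturases, gave unlike values. Scd2 read 12.22, 12.27 and 12.23 on the control arrays and 11.34, 8.43 and 11.16 on the DOX arrays. Scd1 read 12.69, 12.63 and 12.68 on the control arrays and 12.39, 10.38 and 12.59 on the DOX arrays. Both lay below the controls on every DOX array, and on DOX replicates 1 and 3 Scd1 did so by a small margin. Without DOX replicate 2, Scd2 fell by 0.99 (SE 0.11, limma adjusted p = 9.20e-05), and Scd1 differed by −0.18 (95% confidence interval −0.43 to 0.08, limma adjusted p = 0.297). With all arrays the differences were −1.93 and −0.88 (SE 0.75 and 0.57, limma adjusted p = 0.324 and 0.477). The contrast between the paralogs was not tested.

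Elovl5, an elongase of polyunsaturated fatty acids, gave the largest difference of this step without DOX replicate 2, −1.17 (SE 0.11, limma adjusted p = 1.71e-05). It read 10.93, 10.94 and 10.91 on the control arrays and 9.77, 7.43 and 9.75 on the DOX arrays. The control arrays lay close together, and all DOX arrays lay below them. Fads2, a desaturase that begins polyunsaturated fatty acid synthesis, and Elovl1, an elongase of very long chains, fell by 0.77 each without DOX replicate 2 (SE 0.12 each, limma adjusted p = 9.25e-04 and 6.51e-04). Elovl6, which extends palmitate, fell by 0.49 in the same fit (SE 0.16, limma adjusted p = 0.0409). That call was lost when control replicate 1, 2 or 3 or DOX replicate 3 was left out as well (limma adjusted p = 0.103, 0.0511, 0.122 and 0.294), and without DOX replicate 3 the difference was −0.24. Fads1, the desaturase that acts after Fads2, did not pass (−0.05, 95% confidence interval −0.29 to 0.19, limma adjusted p = 0.775).

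Uptake held the largest difference of all the members. Cd36 encodes a membrane protein that takes up long-chain fatty acids. It read 8.38, 7.91 and 8.56 on the control arrays and 3.87, 4.34 and 3.85 on the DOX arrays. The groups lay far apart, and DOX replicate 2 was the highest of the DOX arrays. The log2 difference was −4.27 (SE 0.25, 95% confidence interval −4.87 to −3.66, limma adjusted p = 0.00155), or 19.2-fold lower. Without DOX replicate 2 it was −4.42 (SE 0.17, limma adjusted p = 3.36e-08). The levels on DOX replicates 1 and 3 lay in a low 10% step of control level, which spans 3.67 to 4.28. Without a detection call such levels cannot be told from background, so the size of the fold is uncertain. Counted from the lowest difference, Cd36 held rank 11 of the 19937 genes. Its call held in all 15 alternatives (highest limma adjusted p 0.0336). Adipocytes, endothelial cells and macrophages also carry Cd36, and the mean levels of their marker lists are given above. Of these markers, Lipe, Cebpa, Cd14 and Cd68 lay above the median control level of all genes. Cd14 read a mean of 9.64 in control arrays and fell without DOX replicate 2, while the macrophage markers Cd68 and Ptprc rose in that fit. The part of such cells in the Cd36 result was not tested.

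Lpl encodes lipoprotein lipase, which frees fatty acids from blood triglycerides. It read 4.48, 4.70 and 4.14 on the control arrays and 4.40, 4.72 and 4.39 on the DOX arrays. The groups overlapped at a low level, and the difference was 0.06 (95% confidence interval −0.47 to 0.59, limma adjusted p = 0.885) with all arrays and −0.05 without DOX replicate 2. Fabp5, a cytosolic fatty acid carrier of epithelia, fell by 0.72 without DOX replicate 2 (SE 0.15, limma adjusted p = 0.00401), and its second probe set by 0.65. Fabp3, the carrier abundant in heart muscle and lactating gland, was higher on every DOX array, with a difference of 0.51 and 0.21 in the 2 fits (limma adjusted p = 0.447 and 0.206). It has 2 probe sets with control means of 6.98 and 4.41, and since mouse has a Fabp3 pseudogene, the higher one is uncertain. Acsl4, which activates arachidonic acid, lay at 12.21 in control arrays, and its differences in the 2 fits were −0.19 and 0.24 (limma adjusted p = 0.78 and 0.159).

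Triglyceride assembly had 3 of 7 genes that fell without DOX replicate 2, against 14.3% of all genes. Gpd1 encodes glycerol-3-phosphate dehydrogenase, which makes the glycerol backbone. It read 7.94, 7.98 and 7.96 on the control arrays and 6.16, 5.38 and 6.47 on the DOX arrays. All DOX arrays lay below the controls by more than the spread within either group. The difference was −1.96 (SE 0.30, limma adjusted p = 0.0254), or 3.89-fold lower, and −1.65 (SE 0.12, limma adjusted p = 3.68e-06) without DOX replicate 2. With all arrays the call was lost without control replicate 1, 2 or 3 or DOX replicate 1 (limma adjusted p = 0.165, 0.171, 0.172 and 0.0718), after a second quantile normalization (0.0616) and with arrays centred on their median (0.0557).

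The acyltransferases that follow differed among themselves. Agpat2, which adds the second acyl chain, fell by 0.74 without DOX replicate 2 (SE 0.12, limma adjusted p = 7.98e-04). Its isoform Agpat1 differed by −0.08 (95% confidence interval −0.34 to 0.17, limma adjusted p = 0.655), and Gpam, which adds the first chain, by 0.09 (limma adjusted p = 0.685). Lpin1, a phosphatidate phosphatase, differed by −0.23 (limma adjusted p = 0.163). Dgat1 and Dgat2 encode unrelated enzymes that add the last chain. Dgat2 read 6.50, 6.64 and 6.30 on the control arrays and 5.71, 6.94 and 5.90 on the DOX arrays. DOX replicate 2 was the highest of the 6 arrays, and the other 2 DOX arrays were the lowest. With all arrays Dgat2 differed by −0.29 (limma adjusted p = 0.648), and without DOX replicate 2 it fell by 0.67 (SE 0.13, limma adjusted p = 0.00321). Dgat1 read 7.88, 7.95 and 7.85 on the control arrays and 7.97, 5.59 and 7.70 on the DOX arrays. Here DOX replicate 2 alone was far below the others, and without it the difference was −0.06 (95% confidence interval −0.32 to 0.21, limma adjusted p = 0.785).

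Among the 6 milk fat droplet genes, Btn1a1 and Mfge8 fell and Cidea and Plin2 rose without DOX replicate 2. Of all genes, 14.3% fell and 12.3% rose in that fit. Btn1a1 encodes butyrophilin, the main membrane protein of the milk fat globule. It read 9.12, 9.07 and 9.03 on the control arrays and 6.41, 5.76 and 6.97 on the DOX arrays. Each DOX array lay at least 2 log2 units below the controls. The difference was −2.69 (SE 0.32, limma adjusted p = 0.0101), or 6.47-fold lower, with all arrays and −2.38 (SE 0.16, limma adjusted p = 1.22e-06) without DOX replicate 2. With all arrays the call was lost without control replicate 1, 2 or 3 (limma adjusted p = 0.0871, 0.0911 and 0.0889). Mfge8, which encodes the globule protein lactadherin, fell by 1.56 without DOX replicate 2 (SE 0.11, limma adjusted p = 2.81e-06), and its difference with all arrays was −2.03 (limma adjusted p = 0.0629). It read 12.16 to 12.18 on the control arrays and 10.70, 9.20 and 10.53 on the DOX arrays, so the groups did not overlap.

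Plin2 and Xdh, whose products meet butyrophilin at the droplet surface, did not share this pattern. Plin2, which encodes adipophilin, read 11.67, 11.80 and 11.76 on the control arrays and 12.10, 10.91 and 12.08 on the DOX arrays. DOX replicates 1 and 3 were above and DOX replicate 2 below all controls, so the difference of −0.05 with all arrays (limma adjusted p = 0.94) averages opposite directions. Without DOX replicate 2 it rose by 0.34 (SE 0.11, limma adjusted p = 0.0402), a 1.27-fold change. That call was lost when any further array was left out (limma adjusted p = 0.0729 to 0.147), with the arrays centred on their median (0.111) and with array weights (0.063). Xdh encodes xanthine oxidoreductase. It read 9.41, 9.26 and 9.41 on the control arrays and 9.39, 8.39 and 8.91 on the DOX arrays. The groups overlapped through DOX replicate 1, and the differences of −0.46 and −0.21 did not pass (limma adjusted p = 0.459 and 0.332). Cidea encodes a protein that enlarges lipid droplets. It read 4.09, 3.88 and 4.30 on the control arrays and 5.00, 4.29 and 4.54 on the DOX arrays. It rose by 0.67 without DOX replicate 2 (SE 0.16, limma adjusted p = 0.0102) from percentile 16.4 of control levels, and the call was lost without control replicate 2 or DOX replicate 1 (limma adjusted p = 0.0529 and 0.073). Brown adipocytes also carry Cidea, and the adipocyte marker levels are given above. Their part in the Cidea result was not tested. Plin3, another droplet coat gene, did not pass (−0.10, 95% confidence interval −0.38 to 0.18, limma adjusted p = 0.613).

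**Figure D2:**
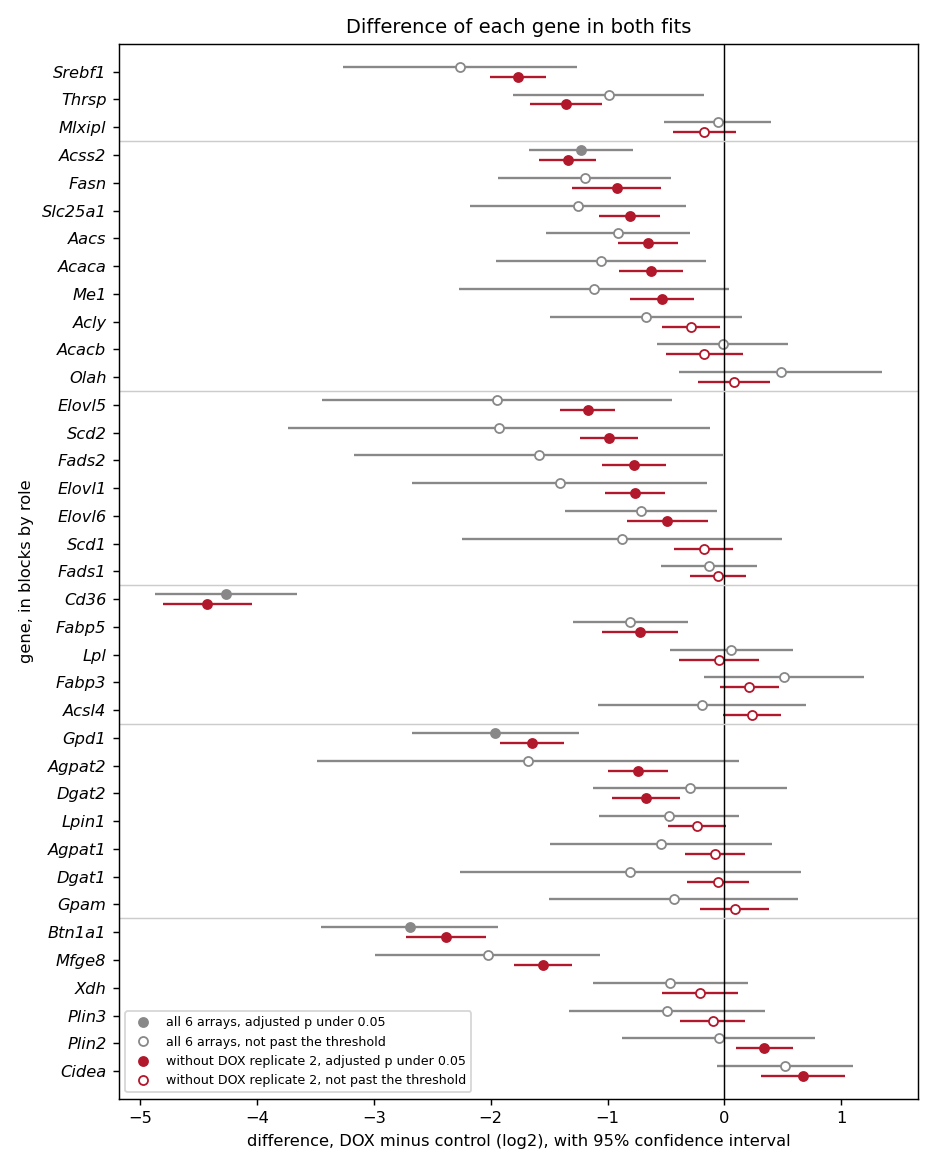
Log2 difference, DOX minus control, of each gene with its 95% confidence interval, in grey with all 6 arrays and in red without DOX replicate 2. Filled points passed a limma adjusted p under 0.05: 4 genes in grey and 22 in red. The red intervals are narrower for every gene, and the red points of Plin2 and Cidea alone are filled above 0.

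The values on DOX replicate 2 depended on the level of a gene. In the lowest 10% step of control level the median gene lay 0.84 above its control mean on that array, and in the highest 10% step the median difference was −1.59. On DOX replicates 1 and 3 these medians lay between −0.12 and 0.14 in all 10 steps. Of the 37 members, 32 lay above the median control level of all genes, and 30 read below their control mean on this array. Compared with the median of their own 10% step, 24 of the 37 members were lower on DOX replicate 2, by a median of 0.35 log2 units below that step over all 37. On DOX replicates 1 and 3, 29 members were below their step on each, with medians of −0.53 and −0.49. Dgat1, Gpam and Agpat1 were below the controls by 1.47 to 2.31 on DOX replicate 2, where their steps read −0.75 to −1.36. On the other DOX arrays these 3 genes lay between −0.19 and 0.24 of the control mean.

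**Figure D3:**
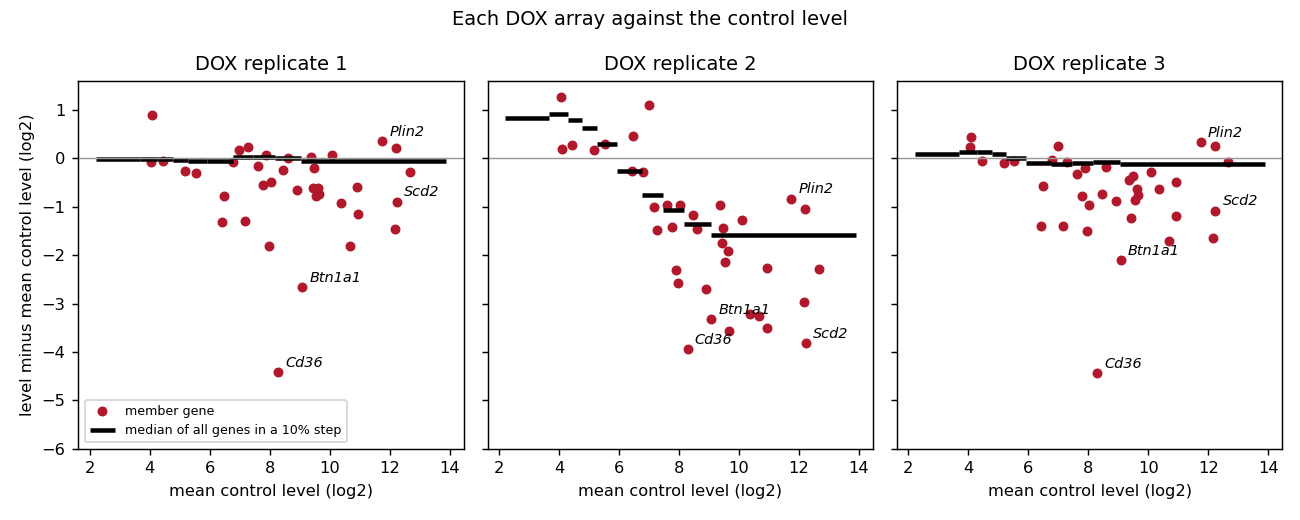
Level on each DOX array minus the mean control level (y axis, log2) against the mean control level (x axis, log2). Red points are the 37 members and black bars the median of all genes in each 10% step of control level. The bars stay near 0 on DOX replicates 1 and 3 and run from 0.84 at the lowest step to −1.59 at the highest on DOX replicate 2, while Cd36 lies between −4.44 and −3.95 on all 3.

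Other genes of fatty acid and triglyceride metabolism moved in both directions. In 5 further lists with 89 measured genes, Mgll, which encodes monoglyceride lipase, was the single gene that passed with all arrays, with a difference of −3.06 (SE 0.17, limma adjusted p = 0.00155). Without DOX replicate 2, 22 of the 89 fell and 11 rose, against 14.3% and 12.3% of all genes, and their median was −0.04. In the same fit, which the values below are from, 3 of 15 genes of SREBP control fell and 3 rose. Insig1, whose product holds SREBP in the endoplasmic reticulum and which is itself an SREBP target, fell by 1.53 (SE 0.14, limma adjusted p = 1.63e-05). Srebf2, the paralog that governs cholesterol synthesis, fell by 0.88, and Rxra, a nuclear receptor partner, by 0.53 (limma adjusted p = 1.78e-04 and 0.00758). Mid1ip1, a paralog of Thrsp singled out after its values were seen, rose by 1.54 (SE 0.16, limma adjusted p = 4.80e-05). It read 6.90, 6.96 and 6.98 on the control arrays and 8.80, 7.31 and 8.18 on the DOX arrays, opposite in direction to Thrsp. Insig2 and Prkaa2, also singled out after their values were seen, rose by 0.70 and 0.65 (limma adjusted p = 0.00118 and 0.00562). Both read below the controls on DOX replicate 2.

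Of 18 other synthesis and elongation genes, 5 fell and 1 rose without DOX replicate 2, against 14.3% and 12.3% of all genes. Idh1, the cytosolic isocitrate dehydrogenase that yields NADPH, fell by 1.49, Tecr, the last enzyme of the elongation cycle, by 0.74, and Mcat, of mitochondrial fatty acid synthesis, by 0.42 (limma adjusted p = 4.33e-06, 9.53e-04 and 0.019). Of 15 other uptake and activation genes, 4 fell and 2 rose, against the same shares of all genes. Dbi, an acyl-CoA binding protein, fell by 0.80 and Slc27a4, a fatty acid transporter, by 0.56, while Angptl4, an inhibitor of lipoprotein lipase, rose by 0.66 (limma adjusted p = 6.33e-04, 0.00311 and 0.00535). Of 18 other triglyceride and droplet genes, 3 fell and 2 rose, again against 14.3% and 12.3% of all genes. Bscl2, the seipin gene of droplet formation, fell by 0.83, Agpat4 rose by 0.38, and Mogat1 differed by 0.49 (limma adjusted p = 2.58e-04, 0.0395 and 0.0574).

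Cholesterol synthesis genes, the other main targets of the SREBP factors, and milk protein genes were lower as well. Of 17 cholesterol synthesis genes, 4 fell with all arrays and 14 without DOX replicate 2, against 2.26% and 14.3% of all genes. Their medians were −1.22 and −0.96. With all arrays, Pmvk fell by 1.63, Mvd by 1.46 and Fdps by 1.22 (limma adjusted p = 0.0068, 0.019 and 0.02). These are 3 enzymes of the early, isoprenoid part of the pathway. The remaining gene called, Tm7sf2, fell by 1.86 (limma adjusted p = 0.0233). Of 6 casein and whey protein genes, 4 fell with all arrays and 6 without DOX replicate 2, against the same shares of all genes. The medians of this list were −4.94 and −4.69. With all arrays the casein genes Csn1s2a, Csn2 and Csn1s2b fell by 7.63, 7.22 and 3.60. Set beside them, the median of the 37 members of −0.54 without DOX replicate 2 was the smallest of the 3 in size. Within the members the medians of the roles ran from −1.35 for the 3 regulators, −0.77 for desaturation and elongation and −0.63 for synthesis to −0.23 for triglyceride assembly, −0.16 for droplet genes and −0.05 for uptake. Differences between lists were not tested.

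**Figure D4:**
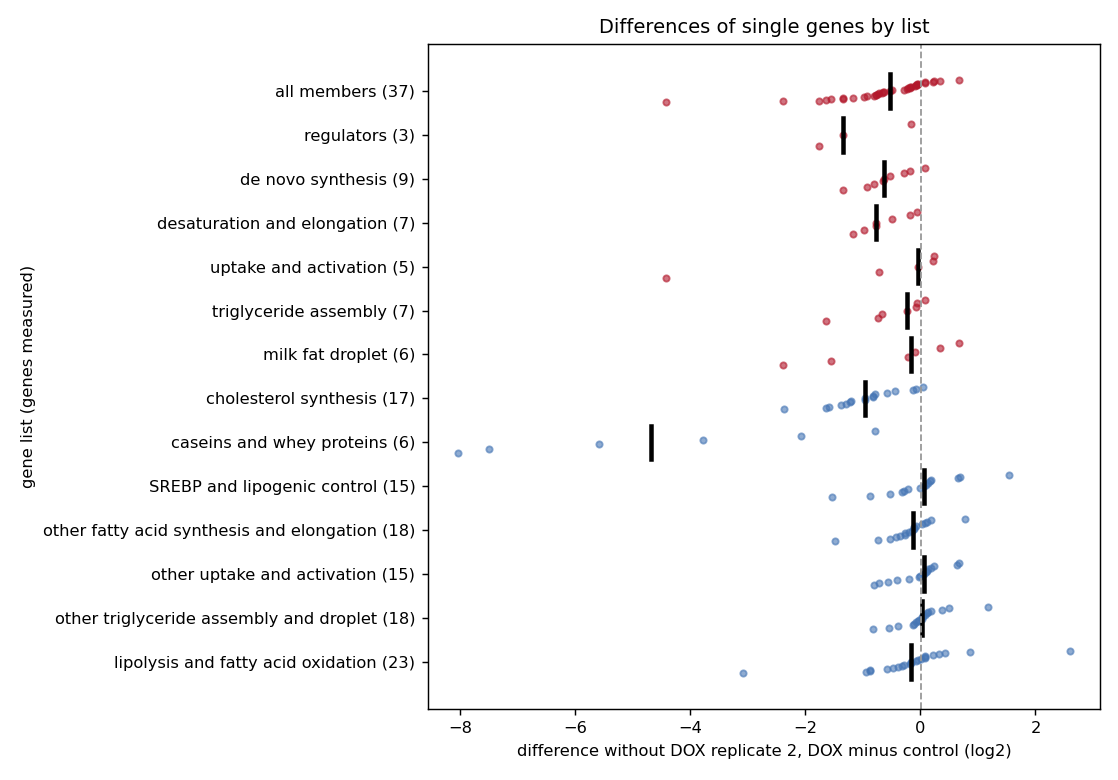
Log2 difference without DOX replicate 2 (x axis) of each gene, one point per gene, for the members and their roles (red) and for the other lists (blue). Black bars are list medians and the dashed line is the median of all genes, 0.0095. The median of the members is −0.54, between −0.96 for cholesterol synthesis and values from −0.17 to 0.06 for the other lipid lists.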

How the data were processed

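Expression was measured on 1 Affymetrix array for each of 6 organoid samples, 3 control and 3 DOX. The deposited values are log2 levels per probe set. They were made by the authors with RMA in the affy package, per the submitters' processing notes, and the versions and settings are not given in the sources used here. RMA averages probes along a transcript and gives no detection call, so low levels have no floor that can be told from background. Of 34760 probe sets, 21640 carried 1 gene symbol in the platform annotation, 1321 several and 11799 none. Through the gene identifier 21553 matched the RefSeq gene table, and 0 symbols changed. Each gene was represented by its probe set of highest mean, giving 19937 genes.

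Groups were compared with limma 3.58.1 (lmFit and eBayes, R 4.3.3) over all genes, DOX minus control, once with 6 arrays and once with 5, without DOX replicate 2. Benjamini-Hochberg adjusted p-values, 2-sided, were taken over all genes, with a threshold of 0.05. The code was tested on simulated data. Folds were computed from log2 differences. For background, genes were divided into 10 steps of control level. Promoter windows came from the RefSeq table on GRCm38.p6 and were searched by letters on both strands. Array values were given in full for members that passed with all arrays, for up to 3 members with the largest called difference in each direction without DOX replicate 2, and for 12 members fixed by name. Outside this rule, those of Elovl5 were given in full, and the DOX array values of Thrsp and Mfge8. Of each other list, up to 3 genes with the smallest p with all arrays were named, and Tm7sf2 of the cholesterol list besides. Mid1ip1, Insig2, Prkaa2, Acot2 and Cpt1a were added after their values were seen. The members and lists were chosen with earlier results of these data known. Alternatives changed the normalization, the filter on low genes, the summary over probe sets, the variance model, the array weights, the replicate block and the arrays included.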

Additional observations from a re-analysis of the deposited data

How the results depend on the processing

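Members that fell with all arrays numbered 4, and 7 after a second quantile normalization, 11 after cyclic loess, 23 with array weights, 2 with the replicate number as a block, and 1 to 20 when single arrays were left out, the highest without DOX replicate 2. Members that rose numbered 0, and 2 with array weights and 0 to 2 with single arrays left out. Over all genes the calls higher and lower moved from 24 and 450 to 185 and 626 after the second quantile normalization and to 557 and 1197 after cyclic loess. Without DOX replicate 2, between 19 and 21 members fell under each alternative run. The members that rose there numbered 2, and 1 with the block, with the lowest 25% or 50% of genes left out, with arrays centred on their median, or with array weights, 3 with a trended, robust variance model, and 0 to 1 with a further array left out. Of the 22 members called without DOX replicate 2, 18 kept the call in all 14 alternatives, and Thrsp in the 13 that could be run, since it is among the lowest 50% of genes. All 19 were lower. The median difference without DOX replicate 2 (−0.54) was −0.64 with the lowest 25% left out, −0.66 with the lowest 50%, −0.60 after centring, −0.64 with the mean over probe sets, and −0.59 to −0.46 with a further array left out. Centring shifted the median of all genes with all arrays from 0.02 to −0.18.

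Erbb3 turned to −0.10 after centring and ranged from −0.16 to 0.37 with single arrays left out. Some members changed sign. Those named here were near 0 with all arrays, except Gpam at −0.43. Fads1 read 0.032 after cyclic loess. Lpl read −0.26 after the second quantile normalization, −0.15 after centring, −0.27 after cyclic loess and −0.027 with array weights. Acsl4 read 0.12 after cyclic loess and 0.22 with array weights. Plin2 read 0.029 after the second quantile normalization, 0.29 after cyclic loess and 0.34 with array weights. With single arrays left out, the ranges were −0.17 to 0.036 for Mlxipl, −0.17 to 0.13 for Acacb, −0.093 to 0.19 for Lpl, −0.42 to 0.24 for Acsl4, −0.77 to 0.088 for Gpam and −0.25 to 0.34 for Plin2. The cause of these changes was not tested. Deviations of same-numbered arrays from their group means correlated at 0.117, 0.194 and 0.0852, so replicate numbers were not taken to pair the samples. With the block, the calls of Acss2 and Gpd1 with all arrays (limma adjusted p = 0.132 and 0.0799) and of Plin2 without DOX replicate 2 (0.0909) were lost. Where 1 DOX array remained, it is assumed to vary like the controls. Signal over background could not be judged, because the deposited values carry no detection call.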

Other observations

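Genes of lipolysis and fatty acid oxidation, which break fat down, include some that fell and some that rose. Of 23 measured genes, 1 fell with all arrays and none rose (at an unadjusted p under 0.05, 7 were lower and 1 higher in limma, against 10.9% and 3.16% of all genes). In the fit of 5 arrays, without DOX replicate 2, 7 fell and 3 rose, against 14.3% and 12.3% of all genes. Mgll, whose enzyme cleaves monoacylglycerol, read 8.34, 8.47 and 8.41 on the control arrays and 5.19, 5.40 and 5.45 on the DOX arrays. The groups lay far apart, and without DOX replicate 2 Mgll fell by 3.09 (SE 0.12, limma adjusted p = 3.79e-08), 8.49-fold. Etfb, an electron carrier of fatty acid oxidation, and Acads, the short-chain acyl-CoA dehydrogenase, fell by 0.88 and 0.87 in that fit (limma adjusted p = 1.75e-04 and 5.31e-04).

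Genes that rose were chosen here after their values were seen. Acot2, a mitochondrial acyl-CoA thioesterase, read 8.30, 8.33 and 8.54 on the control arrays and 11.20, 9.04 and 10.78 on the DOX arrays. It differed by 1.95 with all arrays (limma adjusted p = 0.172) and rose by 2.60 without DOX replicate 2 (SE 0.14, limma adjusted p = 3.79e-07), 6.06-fold. Acot2 has close paralogs, whose probes may share signal. Cpt1a, which commits fatty acids to mitochondrial oxidation, rose by 0.86 without DOX replicate 2 (SE 0.11, limma adjusted p = 2.46e-04) and read below the controls on DOX replicate 2 itself.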
